A study of Mus musculus with 10 samples.

Results

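Acute-phase proteins are plasma proteins that the liver makes in larger or smaller amounts when tissue is damaged or infected. The 10 genes examined here were chosen by symbol from the 55291 genes of the count table: the serum amyloid A genes Saa1, Saa2, Saa3 and Saa4, the orosomucoid genes Orm1, Orm2 and Orm3, the lipocalin gene Lcn2, the haptoglobin gene Hp and the pentraxin gene Apcs. All 10 were in the table and all 10 passed the filter on low counts, which kept 17015 genes.

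The mice were 10 females of 16 to 20 weeks, whose livers were analysed by bulk RNA-seq. Every mouse carried a Cas9 Lox-Stop-Lox allele and received, by tail vein, an AAV8 virus with a guide RNA and a Cre gene under the TBG promoter, which is active in hepatocytes, so that Cas9 was switched on in hepatocytes of control mice too. The guide was either non-targeting (NTC) or directed at Bap1 (sgBap1), which encodes a deubiquitinase of histone H2A. After 10 days, mice were injected once with carbon tetrachloride (CCl4), which cytochrome P450 activates to a radical that kills hepatocytes, in olive oil, or with olive oil alone (Veh), and the right liver lobe was taken 48 hours later. Each vehicle group (NTC-Veh and sgBap1-Veh) had 2 mice and each injured group (NTC-CCl4 and sgBap1-CCl4) had 3. Because whole lobes were sequenced, fewer cells of a type and less RNA per cell cannot be told apart.

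In the classical acute-phase response, interleukin-1, tumour necrosis factor and interleukin-6 from macrophages act on hepatocytes. Interleukin-6 and its relatives signal through STAT3, interleukin-1 through NF-kappaB, and both act together with the C/EBP transcription factors on the promoters of these genes. Saa1 and Saa2 travel on high-density lipoprotein, Saa3 is also made by macrophages and fat cells, Saa4 is known as the constitutive member, and Hp and Lcn2 bind free haemoglobin and iron-laden siderophores.

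The 7 genes of the first 2 families are neighbours. The 4 Saa genes lie within 42.3 kb on chromosome 7 (46711998 to 46754313, GRCm38), in the order Saa3, Saa4, Saa1 and Saa2, and the 3 Orm genes lie within 21.3 kb on chromosome 4 (63344560 to 63365878). Hp is on chromosome 8 (109575128 to 109579172), Lcn2 on chromosome 2 (32384633 to 32388252) and Apcs on chromosome 1 (172893961 to 172895041). The annotation shows no other gene overlapping any of the 10.

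Some of these genes are near copies, and this limits what their single counts mean. The first 90 coding bases of Saa1, Saa2 and Saa3 are shown because they show how alike the copies are; capitals mark bases that differ from Saa1.
Saa1: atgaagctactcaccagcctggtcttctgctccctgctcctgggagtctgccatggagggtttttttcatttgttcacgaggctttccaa
Saa2: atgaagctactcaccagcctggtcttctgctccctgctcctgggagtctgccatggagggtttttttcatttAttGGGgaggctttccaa
Saa3: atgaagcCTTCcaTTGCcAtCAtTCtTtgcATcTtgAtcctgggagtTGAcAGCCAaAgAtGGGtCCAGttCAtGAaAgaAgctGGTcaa
Saa2 differs from Saa1 at 4 of these bases and Saa3 at 44. Over the whole coding sequence Saa1 and Saa2 were 95.1% identical, Saa1 and Saa3 74.3%, and Orm1 and Orm2 89.9%. Of all stretches of 50 bases, the read length, 31.5% of Saa1 and 30.0% of Saa2 also occur in another gene, mainly in each other. The shares were 20.4% for Orm1 and 22.7% for Orm2, at most 3.59% for Orm3, Saa3 and Saa4, and 0 for Lcn2, Hp and Apcs. The split of reads between Saa1 and Saa2, and between Orm1 and Orm2, is therefore uncertain, and sums are given below.

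The upstream sequences of the same 3 genes are shown because Saa1 and Saa2 share theirs while Saa3 does not. Each runs from 250 to 51 bases before the RefSeq start of the gene in GRCm38.p6, and capitals mark a match to the C/EBP pattern TTGCNNAA on either strand.
Saa1 (chr7:46743031-46743230, minus strand): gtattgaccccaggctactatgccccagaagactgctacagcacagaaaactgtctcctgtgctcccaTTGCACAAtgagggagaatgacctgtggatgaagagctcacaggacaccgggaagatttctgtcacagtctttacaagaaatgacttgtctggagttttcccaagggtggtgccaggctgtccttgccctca
Saa2 (chr7:46751583-46751782, plus strand): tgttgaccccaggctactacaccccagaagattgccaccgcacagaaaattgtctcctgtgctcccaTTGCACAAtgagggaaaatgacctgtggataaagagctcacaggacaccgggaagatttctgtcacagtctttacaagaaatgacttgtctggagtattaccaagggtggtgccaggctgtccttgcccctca
Saa3 (chr7:46715727-46715926, minus strand): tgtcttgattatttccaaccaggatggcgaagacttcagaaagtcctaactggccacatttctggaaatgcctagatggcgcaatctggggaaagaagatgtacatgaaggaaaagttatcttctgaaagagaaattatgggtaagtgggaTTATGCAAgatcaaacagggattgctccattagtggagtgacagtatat
Saa1 and Saa2 were 93.5% identical here and Saa1 and Saa3 46.9%. The match lies 182 bases before the start in Saa1, 183 in Saa2 and 99 in Saa3. In windows from 250 bases before to 50 after the start, which RefSeq gave for 8 members (not Orm1 and Hp), the pattern TTGCNNAA occurred in 7, all but Apcs, against 10.8% of 32817 windows of this length. The STAT pattern TTCNNNGAA occurred in 1 of the 8, against 8.29% of windows, the interleukin-6 element CTGGGA in 3, against 31.8%, and the NF-kappaB consensus in 0, against 8.46%. Both strands were searched, and overlapping matches were counted. A match is a run of letters and not a shown binding site.

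Libraries held 33047904 to 52199904 estimated counts, and 3 counts correspond to 0.0511 to 0.112 CPM (counts per 1000000 counts). All CPM values below are scaled by the trimmed mean of M values (TMM). Bap1 itself (chromosome 14, 31251450 to 31259944) was lower in every sgBap1 mouse, at 17.0 to 21.8 CPM, than in every NTC mouse, at 29.5 to 34.8 CPM. The sgBap1 groups are thus livers in which Bap1 RNA was reduced and not absent. Summed hepatocyte markers, 8 genes, were at 105330 to 138941 CPM with vehicle and 59415 to 74642 CPM with CCl4. Most of this sum was Alb, itself a negative acute-phase gene. Cyp2e1 was at 6799 to 10200 CPM with vehicle and 69.4 to 222 CPM with CCl4, and Glul at 1325 to 1819 CPM and 46.9 to 182 CPM. The liver of sgBap1-CCl4 mouse 2 stood apart by fat-cell markers: Adipoq was at 36.4 CPM and Plin1 at 34.5 CPM there, and they did not exceed 0.0425 and 0.0188 CPM in any other mouse. Values of the 10 genes with CCl4 in sgBap1 livers are therefore also given without it.

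Per kilobase of transcript, Hp was the most abundant member in every group, with 2895 ± 534 CPM per kb in NTC-Veh livers (SD, n = 2). Saa1 at 1075 ± 838 and Orm1 at 1035 ± 346 CPM per kb came next in NTC-Veh livers and did not differ beyond their spread. Saa2 (331 ± 293), Orm2 (256 ± 171), Apcs (184 ± 2.46) and Saa4 (123 ± 27.3) formed a middle group whose first 3 overlapped, and Apcs was above Saa4 in both mice. Lcn2 (45.5 ± 8.60), Orm3 (11.5 ± 2.27) and Saa3 (8.52 ± 2.45 CPM per kb) were the lowest, with Orm3 and Saa3 overlapping. After CCl4 the order differed: Lcn2 stood at 472 ± 55.1 CPM per kb in NTC-CCl4 livers (n = 3), behind Hp and Orm1, and Orm3 was last at 2.47 ± 1.19. The 10 genes together held 0.419% to 0.596% of all counts with vehicle and 0.930% to 1.12% with CCl4.

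**Figure D1:**
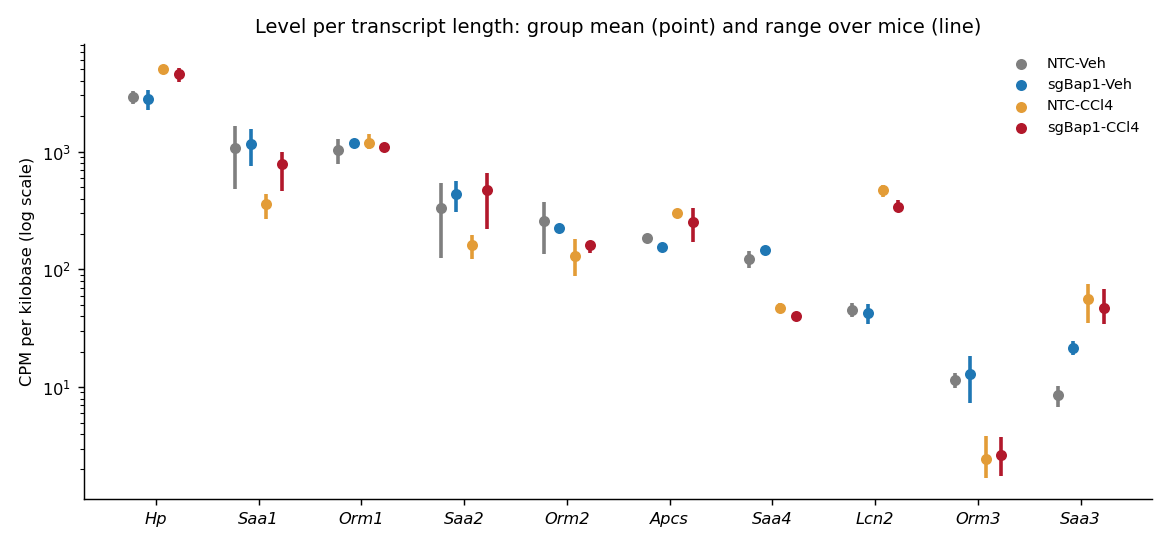
Level of each gene in CPM per kilobase of transcript on a log scale, with 1 point per group mean and a line from the lowest to the highest mouse. Lcn2 and Saa3 sit higher in both CCl4 groups and Saa4 and Orm3 lower, while Hp is the highest in all 4 groups.

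CCl4 moved these genes in both directions. In NTC livers 4 of the 10 rose (Lcn2, Saa3, Hp and Apcs), 3 fell (Saa1, Saa4 and Orm3) and 3 did not pass the test (Saa2, Orm1 and Orm2), at an adjusted p under 0.05 in edgeR's quasi-likelihood test with Benjamini-Hochberg adjustment. Of all genes tested, 53.9% passed in this comparison (27.4% higher and 26.6% lower), so 7 of 10 is not far from the background. In sgBap1 livers 6 of the 10 passed, against 57.0% of all genes (29.0% higher and 28.0% lower): the same 4 genes rose, and Saa4 and Orm3 fell. The median log2 fold change of the 10 was -0.39 in NTC livers and -0.01 in sgBap1 livers, beside 0.03 and 0.04 over all genes tested. NTC-CCl4 and NTC-Veh mice did not overlap for the 7 genes that passed, and 71.7% of all genes did not overlap. In sgBap1 livers 8 of the 10 did not overlap, 4 higher and 4 lower, against 72.2% of all genes. Orm1 and Orm2 were among the lower ones without passing the test. Scaling by library size alone moves the median of all genes to 0.50 and 0.52 (log2). It left 5 members higher and 2 lower in NTC livers and 4 higher and 2 lower in sgBap1 livers. These counts are to be read against all genes (17015 tested) with the same scaling. Of those, 10561 passed in NTC livers, 80.5% of them higher, and 11002 in sgBap1 livers, 78.3% of them higher.

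**Figure D2:**
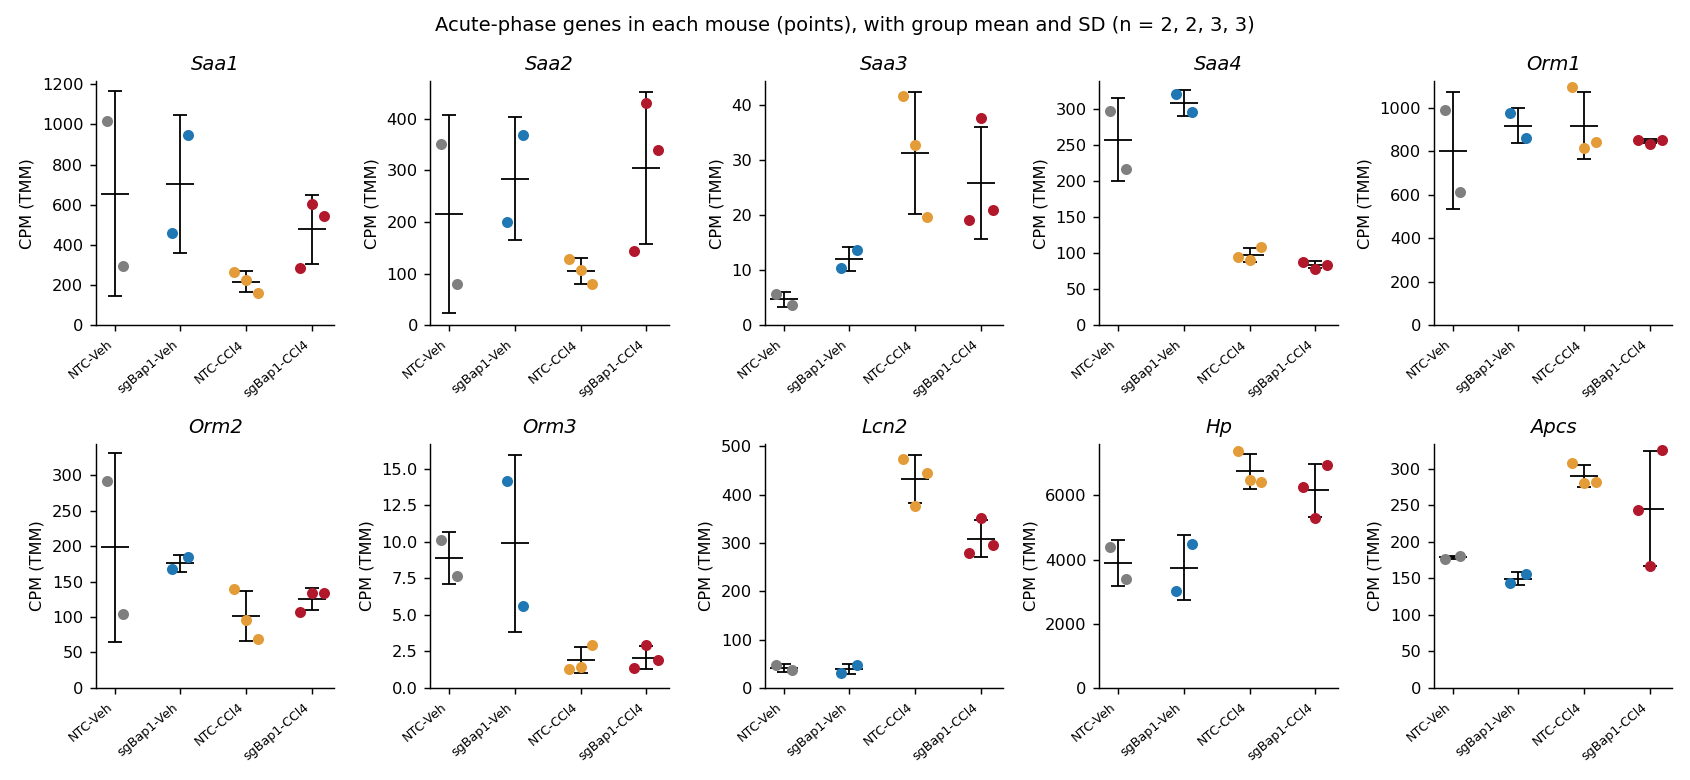
CPM of each gene in each mouse (points), with the group mean and SD (bars), with 2 mice in each vehicle group and 3 in each CCl4 group. Lcn2 is at 31.2 to 47.2 CPM with vehicle and 279 to 475 CPM with CCl4, and the 2 NTC-Veh mice lie far apart for Saa1, Saa2 and Orm2.

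Lcn2 showed the largest fold change of the 10. Lcn2 encodes lipocalin-2, which withholds iron from bacteria by binding their siderophores. It was at 47.2 and 36.1 CPM in NTC-Veh mice, 31.2 and 46.7 in sgBap1-Veh, 475, 376 and 445 in NTC-CCl4, and 279, 352 and 295 in sgBap1-CCl4. Every CCl4 mouse was above every vehicle mouse. Lcn2 rose 10.4-fold in NTC livers (log2 3.37 ± 0.22 SE, adjusted p = 2.45e-06) and 7.94-fold in sgBap1 livers (log2 2.99 ± 0.22, adjusted p = 3.42e-06). Neutrophils also make Lcn2. Their 9 markers summed to 3.60 to 6.65 CPM with vehicle and 15.8 to 25.1 CPM with CCl4. Of the 6 tested, 4 rose in each guide group, beside 27.4% of all genes higher in NTC and 29.0% in sgBap1 livers. Most of this sum was S100a8 and S100a9, and of the other 7, Mmp8 went from at most 0.163 CPM with vehicle to 1.38 to 3.20 CPM with CCl4 and Retnlg from at most 0.673 to 1.09 to 2.07 CPM, while Ly6g, Mpo, Elane, Camp and Ngp overlapped between vehicle and CCl4 mice, with a highest value of 1.05 CPM. The part of neutrophils in the Lcn2 level was not tested.

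Hp rose less. Haptoglobin captures free haemoglobin so that it can be cleared. Hp was at 4402 and 3386 CPM in NTC-Veh mice, 3031 and 4472 in sgBap1-Veh, 7375, 6462 and 6406 in NTC-CCl4, and 6250, 5281 and 6940 in sgBap1-CCl4. All CCl4 mice were above all vehicle mice. The increase was 1.73-fold in NTC livers (log2 0.79 ± 0.22, adjusted p = 0.0107) and 1.64-fold in sgBap1 livers (log2 0.71 ± 0.22, adjusted p = 0.0169). The NTC call was lost without NTC-Veh mouse 2 (log2 0.62, adjusted p = 0.104) and the sgBap1 call without sgBap1-Veh mouse 1 (log2 0.46, adjusted p = 0.167).

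Apcs, the gene of serum amyloid P component and the main acute-phase pentraxin of mice, was at 177 and 180 CPM in NTC-Veh mice, 143 and 156 in sgBap1-Veh, 307, 281 and 282 in NTC-CCl4, and 244, 167 and 325 in sgBap1-CCl4. Mouse 2 of the last group, the mouse with fat-cell markers, was within the range of the vehicle mice as a whole, though above both sgBap1-Veh mice. Apcs rose 1.62-fold in NTC livers (log2 0.70 ± 0.22, adjusted p = 0.0209) and 1.64-fold in sgBap1 livers (log2 0.71 ± 0.22, adjusted p = 0.0183), and without mouse 2 the latter log2 fold change was 0.93 (adjusted p = 0.000254) and without mouse 3, the highest, it was 0.45 (adjusted p = 0.0399). The NTC call was lost without NTC-Veh mouse 1 or 2 or NTC-CCl4 mouse 1 (adjusted p = 0.0964, 0.0876 and 0.0557), and the sgBap1 call without sgBap1-Veh mouse 1 or 2 (adjusted p = 0.104 and 0.0629), at log2 values from 0.65 to 0.78.

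The 4 Saa neighbours did not move together. Saa3 was at 5.69 and 3.77 CPM in NTC-Veh mice, 10.4 and 13.6 in sgBap1-Veh, 41.7, 32.7 and 19.6 in NTC-CCl4, and 19.1, 37.7 and 21.0 in sgBap1-CCl4. The CCl4 mice were all above the vehicle mice, and both sgBap1-Veh mice were above both NTC-Veh mice. Saa3 rose 6.63-fold in NTC livers (log2 2.73 ± 0.44, adjusted p = 0.000947) and 2.16-fold in sgBap1 livers (log2 1.11 ± 0.40, adjusted p = 0.0425). The sgBap1 call was lost without sgBap1-CCl4 mouse 2, the highest of its group (log2 0.74, adjusted p = 0.109). It was also lost without sgBap1-Veh mouse 1 (log2 0.93, adjusted p = 0.200), sgBap1-Veh mouse 2 (1.31, adjusted p = 0.0902) or NTC-CCl4 mouse 2 (1.11, adjusted p = 0.0591). Saa3 is made by macrophages as well as hepatocytes, and the 8 macrophage and monocyte markers summed with vehicle to 146 to 209 CPM in NTC and 291 to 397 CPM in sgBap1 livers, and with CCl4 to 607 to 771 CPM in NTC and 595 to 787 CPM in sgBap1 livers. Lyz2 made up most of this sum with CCl4, at 349 to 501 CPM. Of the 8 markers 5 rose and 0 fell with CCl4 in NTC livers, beside 27.4% higher and 26.6% lower of all genes. In sgBap1 livers 4 rose and 2 fell, beside 29.0% and 28.0%. There the resident-macrophage markers Clec4f and Timd4 had log2 fold changes of -1.29 (adjusted p = 0.00155) and -1.13 (adjusted p = 0.0366). The part of these cells in the Saa3 level was not tested.

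Saa4, next to Saa3 on the chromosome, went the other way. It was at 297 and 217 CPM in NTC-Veh mice, 320 and 295 in sgBap1-Veh, 94.4, 89.6 and 109 in NTC-CCl4, and 88.2, 78.4 and 83.8 in sgBap1-CCl4. The vehicle and CCl4 mice did not overlap. Saa4 fell 2.63-fold in NTC livers (log2 -1.40 ± 0.14, adjusted p = 1.9e-05) and 3.69-fold in sgBap1 livers (log2 -1.88 ± 0.14, adjusted p = 3.47e-06), and both calls held in all 10 leave-outs.

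Saa1 and Saa2 were the genes that differed most between the 2 NTC-Veh mice. Saa1 was at 1016 and 294 CPM in NTC-Veh mice, 459 and 948 in sgBap1-Veh, 265, 224 and 163 in NTC-CCl4, and 283, 606 and 545 in sgBap1-CCl4. Saa2 was at 351 and 80.7, 200 and 368, 129, 108 and 79.4, and 144, 431 and 340 CPM in the same groups. The 2 NTC-Veh mice differed 3.45-fold for Saa1, 4.35-fold for Saa2 and 2.80-fold for Orm2, beside a median of 1.14-fold over all genes tested, and mouse 1 of that pair was the higher for 9 of the 10 genes. Saa1 fell 3.01-fold with CCl4 in NTC livers (log2 -1.59 ± 0.55, adjusted p = 0.0387), and Saa2 had a log2 fold change of -1.03 ± 0.65 (adjusted p = 0.217). Without NTC-Veh mouse 1 the Saa1 value was -0.44 and the Saa2 value 0.39. The Saa1 call was also lost without any one of NTC-CCl4 mice 1, 2 and 3 and sgBap1-CCl4 mice 2 and 3 (log2 -1.76 to -1.42, adjusted p = 0.0588 to 0.104), and Saa2 passed the test without NTC-Veh mouse 2 (log2 -1.74, adjusted p = 0.0387). In sgBap1 livers the values were -0.56 ± 0.55 for Saa1 (adjusted p = 0.416) and 0.10 ± 0.66 for Saa2 (adjusted p = 0.906).

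Counted together, which does not depend on how reads were split, Saa1 and Saa2 were at 1367 and 375 CPM in NTC-Veh mice, 659 and 1316 in sgBap1-Veh, 394, 332 and 242 in NTC-CCl4, and 427, 1037 and 885 in sgBap1-CCl4. NTC-Veh mouse 2 lay between NTC-CCl4 mice 1 and 2. The sum had a log2 fold change of -1.43 ± 0.57 with CCl4 in NTC livers (adjusted p = 0.0649) and -0.33 ± 0.58 in sgBap1 livers (adjusted p = 0.645). The share of Saa2 in this sum was 23.6% ± 2.95 in NTC-Veh, 29.2% ± 1.69 in sgBap1-Veh, 32.7% ± 0.142 in NTC-CCl4 and 37.9% ± 3.98 in sgBap1-CCl4 (SD, n = 2, 2, 3 and 3). Every CCl4 mouse was above every vehicle mouse in this share, and each sgBap1 mouse was above each NTC mouse of the same treatment. The shares are given without a test.

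**Figure D3:**
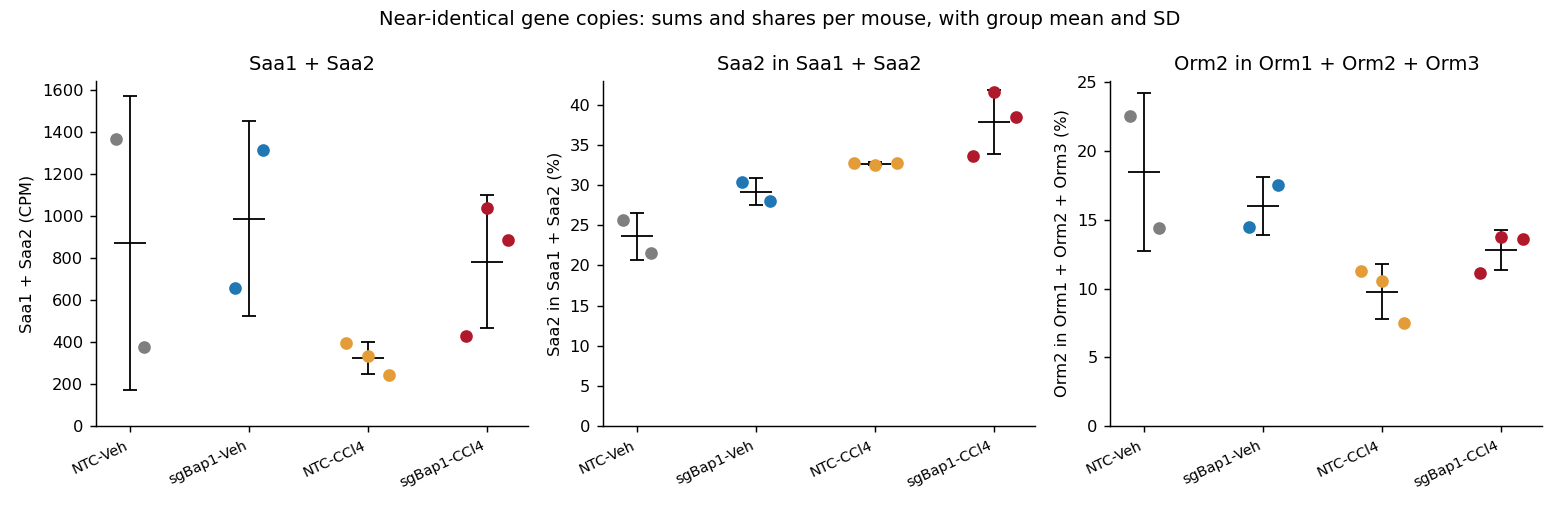
Sum of Saa1 and Saa2 in CPM (left), the percent of it that was Saa2 (middle), and the percent of the 3 Orm genes that was Orm2 (right), per mouse with group mean and SD. The Saa2 share runs from 21.5% to 30.4% with vehicle and from 32.5% to 41.6% with CCl4, while the sum overlaps between each vehicle group and the CCl4 group of the same guide.

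The orosomucoids, or alpha-1-acid glycoproteins, are lipid- and drug-binding plasma proteins. Orm1, the most abundant of the 3, was at 992 and 612 CPM in NTC-Veh mice, 974 and 860 in sgBap1-Veh, 1095, 815 and 843 in NTC-CCl4, and 854, 835 and 852 in sgBap1-CCl4. Its levels overlapped between NTC-Veh and NTC-CCl4 mice, while the sgBap1-CCl4 mice were all below both sgBap1-Veh mice. The log2 fold changes were 0.19 ± 0.20 in NTC livers (adjusted p = 0.443) and -0.11 ± 0.20 in sgBap1 livers (adjusted p = 0.647). With scaling by library size alone they were 0.68 and 0.36, and the first of these passed the test (adjusted p = 0.00792). Without NTC-Veh mouse 1 the NTC value was 0.58 and also passed (adjusted p = 0.0396).

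Orm2 was at 292 and 104 CPM in NTC-Veh mice, 168 and 184 in sgBap1-Veh, 140, 96.0 and 68.6 in NTC-CCl4, and 107, 133 and 134 in sgBap1-CCl4. Its log2 fold change was -0.97 ± 0.41 in NTC livers (adjusted p = 0.0779) and -0.49 ± 0.41 in sgBap1 livers (adjusted p = 0.336). The NTC value passed without NTC-Veh mouse 2 (log2 -1.53, adjusted p = 0.00432) or NTC-CCl4 mouse 1 (log2 -1.27, adjusted p = 0.0413), and was -0.04 without NTC-Veh mouse 1. As a share of the 3 genes, Orm2 was 18.5% ± 5.78 in NTC-Veh, 16.01% ± 2.14 in sgBap1-Veh, 9.78% ± 2.01 in NTC-CCl4 and 12.8% ± 1.47 in sgBap1-CCl4.

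Orm3, the scarcest, was at 10.1 and 7.65 CPM in NTC-Veh mice, 14.2 and 5.61 in sgBap1-Veh, 1.30, 1.47 and 2.97 in NTC-CCl4, and 1.36, 2.91 and 1.89 in sgBap1-CCl4. All CCl4 mice were below all vehicle mice. Orm3 fell 4.73-fold in NTC livers (log2 -2.24 ± 0.47, adjusted p = 0.00348) and 4.85-fold in sgBap1 livers (log2 -2.28 ± 0.46, adjusted p = 0.00266), with both calls held in all 10 leave-outs, at -1.45 in sgBap1 livers without sgBap1-Veh mouse 1 (adjusted p = 0.0369). The sum of the 3 Orm genes, most of which is Orm1, had log2 fold changes of 0.02 ± 0.22 and -0.18 ± 0.22.

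Without sgBap1-CCl4 mouse 2, 5 of the 10 passed with CCl4 in sgBap1 livers: Lcn2 (log2 2.89), Hp (0.81) and Apcs (0.93) rose, and Saa4 (-1.84) and Orm3 (-2.63) fell. The 5 that did not pass were Saa3 (0.74), Saa1 (-0.76), Saa2 (-0.23), Orm1 (-0.10) and Orm2 (-0.54), so that Saa3 was the gene whose call changed.

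Reduction of Bap1 without injury moved none of the 10 past the threshold. In sgBap1-Veh against NTC-Veh livers 0 of the 10 passed in edgeR's quasi-likelihood test, against 0.406% of all genes, and the median log2 fold change was 0.14, beside 0.02 over all genes. Saa3 alone had an unadjusted p under 0.05, which held for 12.3% of all genes. Saa3 was 2.54-fold higher in sgBap1-Veh (log2 1.34 ± 0.45, adjusted p = 0.274), and DESeq2's Wald test called it (adjusted p = 0.0188). All 8 macrophage and monocyte markers had log2 fold changes above 0 in this comparison, with a median log2 fold change of 0.95, 0 passing the adjusted test and 7 at an unadjusted p under 0.05. The 2 groups did not overlap for Saa3 (higher) and Apcs (lower, log2 -0.25 ± 0.24, adjusted p = 0.753), against 40.9% of all genes. The other 8 genes had log2 fold changes from -0.17 to 0.39.

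After CCl4 the guides also gave 0 calls among the 10 in edgeR's test, against 0.329% of all genes, and 0 in DESeq2's. Saa1 was 2.20-fold higher in sgBap1-CCl4 than in NTC-CCl4 livers (log2 1.14 ± 0.50, adjusted p = 0.365) and Saa2 2.89-fold higher (log2 1.53 ± 0.60, adjusted p = 0.319). For both, the 3 sgBap1-CCl4 mice were above the 3 NTC-CCl4 mice. Lcn2 (log2 -0.48 ± 0.17, adjusted p = 0.244) and Saa4 (log2 -0.22 ± 0.13, adjusted p = 0.450) were lower in each sgBap1-CCl4 mouse than in each NTC-CCl4 mouse. That makes 4 of 10 genes without overlap, against 20.2% of all genes, and 2 of 10 (Saa2 and Lcn2) with an unadjusted p under 0.05, against 14.0%. Without sgBap1-CCl4 mouse 2, the mouse with fat-cell markers and the highest Saa1 and Saa2 of its group, the values were 0.93 (adjusted p = 0.669) for Saa1, 1.20 (adjusted p = 0.627) for Saa2 and -0.59 (adjusted p = 0.287) for Lcn2. The sum of Saa1 and Saa2 had a log2 fold change of 1.28 ± 0.53 (adjusted p = 0.334).

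Whether the response to CCl4 differed between guides was tested as an interaction. None of the 10 passed, and neither did any of the 17015 genes in edgeR's test (0% of all genes, with 10.4% at an unadjusted p under 0.05). Saa3 and Saa4 had an unadjusted p under 0.05: the Saa3 interaction was -1.62 ± 0.57 on the log2 scale (adjusted p = 0.364) and that of Saa4 -0.48 ± 0.20 (adjusted p = 0.426). DESeq2's Wald test, which called 424 genes, called Saa3 (adjusted p = 0.0386). Without sgBap1-CCl4 mouse 2 the edgeR values were -1.99 for Saa3 (adjusted p = 0.175) and -0.44 for Saa4 (adjusted p = 0.485). The 8 macrophage and monocyte markers had a median interaction of -1.13 and all 8 an unadjusted p under 0.05.

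**Figure D4:**
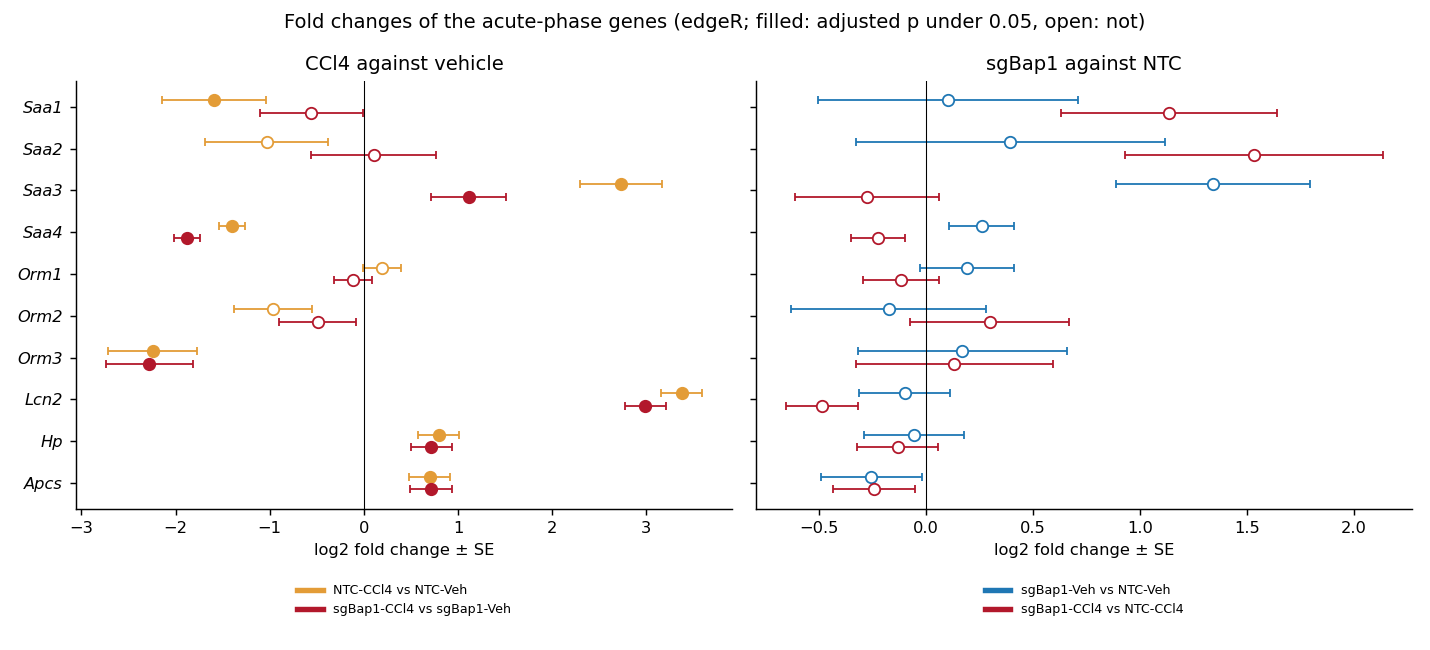
Log2 fold change with its SE for each gene, with CCl4 against vehicle for both guides on the left and sgBap1 against NTC for both treatments on the right; filled points have an adjusted p under 0.05. No point on the right is filled, and the Saa1 and Saa2 values after CCl4 lie at 1.14 and 1.53.

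Other genes of the acute-phase response were followed in 6 lists. Of 17 further positive acute-phase genes tested, 4 rose and 3 fell with CCl4 in NTC livers and 5 rose and 2 fell in sgBap1 livers. These shares, like those of the lists below, are to be read against 27.4% higher and 26.6% lower of all genes tested in NTC livers and 29.0% and 28.0% in sgBap1 livers, and both were under the 53.9% and 57.0% called in all. Il1rn, the interleukin-1 receptor antagonist, rose 10.4-fold in NTC livers (log2 3.37, adjusted p = 5.53e-05) and 14.0-fold in sgBap1 livers (log2 3.80, adjusted p = 3.00e-05). The ceruloplasmin gene Cp rose 1.80-fold in NTC livers (log2 0.85, adjusted p = 0.00633) and 1.59-fold in sgBap1 livers (log2 0.66, adjusted p = 0.0202). The latter call was lost without sgBap1-Veh mouse 1 (log2 0.52, adjusted p = 0.1499) or sgBap1-CCl4 mouse 1 or 3 (log2 0.62 and 0.51, adjusted p = 0.0569 and 0.0613). Crp, the other short pentraxin beside Apcs, fell 1.83-fold in NTC livers (log2 -0.87, adjusted p = 0.00183) and 1.98-fold in sgBap1 livers (log2 -0.98, adjusted p = 0.000824). Among leave-outs of a CCl4 mouse, the NTC call of Hpx was lost without any 1 NTC-CCl4 mouse or sgBap1-CCl4 mouse 1 (log2 0.44 to 0.55, adjusted p = 0.0650 to 0.130). Its log2 fold change was 0.31 without NTC-Veh mouse 2 and 0.72 without NTC-Veh mouse 1. Among the same leave-outs, the call of Fgb in sgBap1 livers was lost without sgBap1-CCl4 mouse 1 or 3 (adjusted p = 0.0731 and 0.0682). The Fgb value was 0.56 without sgBap1-Veh mouse 1 and 0.70 without sgBap1-Veh mouse 2. Among the same leave-outs, the call of Steap4 in sgBap1 livers was lost without sgBap1-CCl4 mouse 3 (adjusted p = 0.0669). The Steap4 value there was 0.67 without sgBap1-Veh mouse 1 and 0.88 without sgBap1-Veh mouse 2. In NTC livers the log2 fold change of Steap4 was 0.96. It was 0.57 without NTC-Veh mouse 2 and 1.496 without NTC-Veh mouse 1, so single vehicle mice weigh on it.

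Negative acute-phase genes encode plasma proteins whose output drops in the response. Of 10 tested, 0 rose and 8 fell in NTC livers, and 0 rose and 5 fell in sgBap1 livers, against 26.6% and 28.0% of all genes lower. The medians were -1.16 and -0.92 beside 0.03 and 0.04 over all genes. Among leave-outs of a CCl4 mouse, the NTC calls of Alb and Ttr were lost without NTC-CCl4 mouse 1 or 3 (log2 -0.74 to -0.55, adjusted p = 0.0604 to 0.125). That of Ttr was also lost without sgBap1-CCl4 mouse 1 (log2 -0.67, adjusted p = 0.0562). Without NTC-Veh mouse 1 the log2 values were -0.59 for Alb, -0.35 for Ttr and -0.80 for Apoa1, so the NTC count leans on single mice. Of the 8 hepatocyte markers, which share Alb with this list, 7 fell in NTC livers (median -1.57) and 6 in sgBap1 livers (median -1.31), and their part in these results was not tested. Serpina6, the corticosteroid carrier, went from 459 ± 55.0 CPM (n = 2) to 15.1 ± 2.66 CPM (n = 3) in NTC livers (log2 -4.92, adjusted p = 3.84e-05) and Apoa2, of high-density lipoprotein, fell 4.61-fold (adjusted p = 4.46e-05). In sgBap1 livers they fell 44.7-fold and 5.17-fold, with Serpina6 going from 842 ± 35.8 CPM (n = 2) to 18.9 ± 11.9 CPM (n = 3). No gene of this list passed in the interaction, and no other gene did.

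The genes of the inducing cytokines were at low levels in whole liver. Il1a was at 3.49 to 10.8 CPM and Il1b at 1.47 to 7.08 CPM over the 10 mice, and Tnf did not exceed 2.52 CPM. Il6 did not exceed 0.416 CPM in any mouse and Il22 was at 0 counts in all 10, which allows up to 0.112 CPM in the shallowest library. Of 6 cytokines tested, 5 rose in NTC livers and 3 in sgBap1 livers, against 27.4% and 29.0% of all genes higher. Among leave-outs of a CCl4 mouse, the NTC call of Il1b was lost without NTC-CCl4 mouse 2 or 3 (log2 1.26 and 1.22, adjusted p = 0.0600 and 0.0609). Without NTC-Veh mouse 2 the log2 values in NTC livers were 0.99 for Il1b and 0.71 for Il1a. Without NTC-Veh mouse 1 they were 1.96 and 1.28. Tnf rose 10.7-fold in NTC livers (log2 3.42, adjusted p = 7.54e-05) and 3.44-fold in sgBap1 livers (log2 1.78, adjusted p = 0.00211), with an interaction of -1.64 (adjusted p = 0.392). Its vehicle levels were low, at 0.192 ± 0.075 CPM in NTC-Veh and 0.474 ± 0.176 CPM in sgBap1-Veh livers (n = 2 each). With CCl4 Tnf was at 2.09 ± 0.55 CPM in NTC and 1.58 ± 0.20 CPM in sgBap1 livers (n = 3 each). Lif passed the test in both, from a mean of 4.5 counts in NTC-Veh and 2.5 counts in sgBap1-Veh mice (0.123 ± 0.018 and 0.078 ± 0.004 CPM, n = 2) to 1.55 ± 0.63 and 2.20 ± 0.41 CPM with CCl4 (n = 3). Osm, which had about 1 count in each vehicle mouse, was at 0.640 ± 0.179 CPM in NTC-CCl4 and 0.959 ± 0.336 CPM in sgBap1-CCl4 livers (n = 3 each).

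Of the 8 cytokine receptors 3 rose and 3 fell in NTC livers, and 4 rose and 2 fell in sgBap1 livers, beside 53.9% and 57.0% of all genes called. Osmr, the oncostatin M receptor, rose 5.69-fold and 5.34-fold, while Il1rap, a subunit of the interleukin-1 receptor, fell 3.63-fold and 3.39-fold, and Lifr 2.98-fold and 2.62-fold. Il6ra, the ligand-binding interleukin-6 receptor, fell 2.19-fold in NTC livers (log2 -1.13, adjusted p = 0.000533) and had a log2 fold change of -0.27 in sgBap1 livers (adjusted p = 0.227). Its level was higher in every sgBap1-CCl4 than in every NTC-CCl4 mouse (log2 0.67, adjusted p = 0.123), and the interaction was 0.86 ± 0.26 (adjusted p = 0.255).

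Among the 12 signalling and transcription factor genes, 5 rose and 4 fell in NTC livers, and 7 rose and 2 fell in sgBap1 livers, beside the same 53.9% and 57.0%. Socs3, a feedback inhibitor that STAT3 induces, rose 3.27-fold and 4.88-fold. Cebpa fell 2.95-fold and 3.78-fold, and Cebpb fell 1.77-fold in NTC livers (log2 -0.83, adjusted p = 0.00679), a call lost without NTC-Veh mouse 1 (log2 -0.51, adjusted p = 0.0874). In sgBap1 livers Cebpb had a log2 fold change of 0.26 (adjusted p = 0.311), and its interaction was 1.09 ± 0.29 (adjusted p = 0.202). Of the genes tested in the 6 lists, Cebpd alone passed between the guides after CCl4, against 0.329% of all genes. With vehicle no gene of the lists passed between the guides, against 0.406% of all genes. Cebpd encodes a C/EBP factor of the acute-phase response. It was at 5.72 and 4.85 CPM in NTC-Veh mice, 4.17 and 4.08 in sgBap1-Veh, 4.03, 5.75 and 3.88 in NTC-CCl4, and 9.25, 12.7 and 8.69 in sgBap1-CCl4. The sgBap1-CCl4 mice were above the other 7. Cebpd was 2.23-fold higher in sgBap1-CCl4 than in NTC-CCl4 livers (log2 1.16 ± 0.19, adjusted p = 0.0392), a call lost without sgBap1-CCl4 mouse 2 (log2 0.97, adjusted p = 0.0797) and without any one of the 4 vehicle mice, NTC-CCl4 mouse 1 or 3, or sgBap1-CCl4 mouse 1 (log2 1.06 to 1.23, adjusted p = 0.0595 to 0.216). It rose 2.47-fold with CCl4 in sgBap1 livers (log2 1.31, adjusted p = 0.000667) and had a log2 fold change of -0.21 in NTC livers (adjusted p = 0.446), and the interaction was 1.52 ± 0.31 (adjusted p = 0.104).

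Receptors of the secreted proteins were the last list. Of 8 tested, 3 rose and 0 fell in NTC livers, and 2 rose and 1 fell in sgBap1 livers, which is 3 of 8 each beside 53.9% and 57.0% of all genes. Tlr2, a serum amyloid A receptor, rose 4.76-fold in NTC livers and 2.44-fold in sgBap1 livers, and Tlr4 4.23-fold and 2.40-fold. Fpr2, a formyl peptide receptor that binds serum amyloid A, rose 2.84-fold in NTC livers (adjusted p = 0.00652), a call lost without NTC-Veh mouse 2 (log2 1.18, adjusted p = 0.0682), and had a log2 fold change of 0.57 in sgBap1 livers (adjusted p = 0.189). Cd163, the macrophage receptor for haptoglobin and haemoglobin, fell 2.79-fold in sgBap1 livers (adjusted p = 0.0224), a call lost without sgBap1-Veh mouse 1 (log2 -0.61, adjusted p = 0.293) or any 1 sgBap1-CCl4 mouse (log2 -1.60 to -1.34, adjusted p = 0.0507 to 0.0663). In NTC livers the value of Cd163 was -0.89 (adjusted p = 0.136). Tlr2, Tlr4, Fpr2 and Cd163, the receptors named here, are expressed by myeloid cells, and the other receptors of the list were not sorted by cell type. The macrophage and monocyte markers given above changed with CCl4 as well, in both directions in sgBap1 livers. Their part in these results was not tested.

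**Figure D5:**
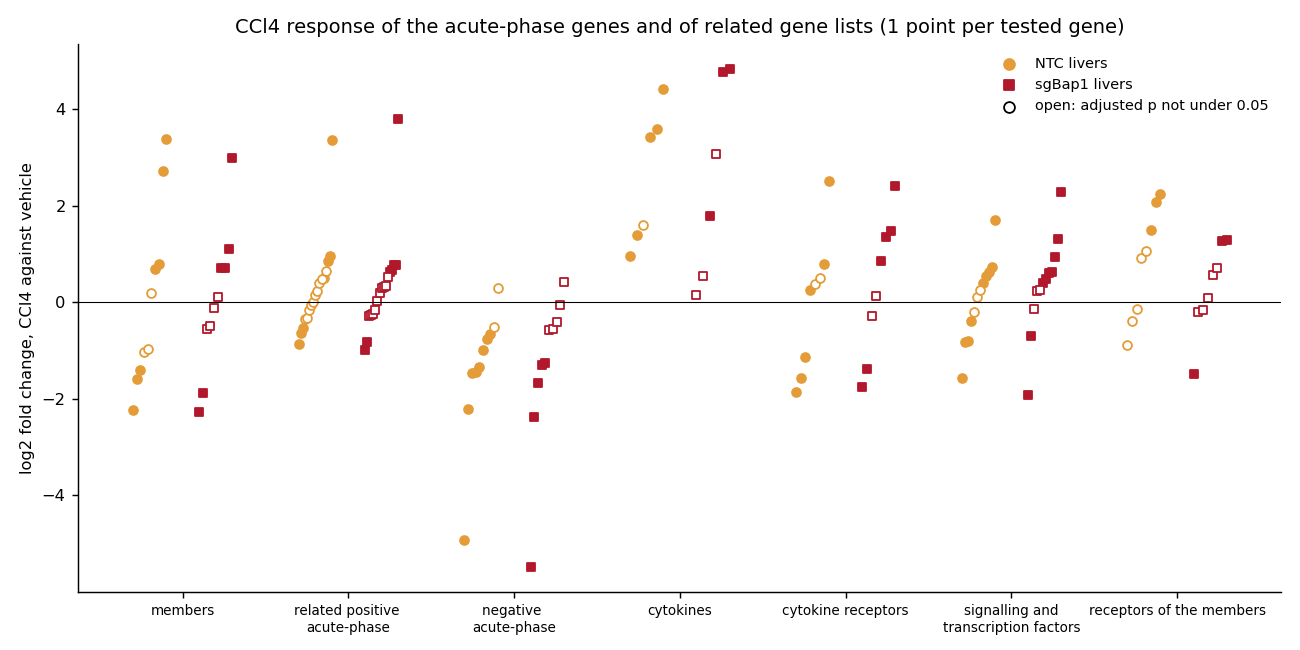
Log2 fold change with CCl4 against vehicle of each tested gene of the 10 acute-phase genes (members) and of 6 related lists, circles for NTC and squares for sgBap1 livers, with open symbols where the adjusted p was not under 0.05. Negative acute-phase genes reach -4.92 in NTC livers and cytokines lie above 0, where the values of Osm and Lif rest on means of 1 and of 2.5 to 4.5 counts per vehicle mouse. With vehicle Tnf was at 0.139 to 0.599 CPM and Il6 at no more than 0.136 CPM.

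Genes whose pattern over the 10 mice was most like that of Saa1 and Lcn2 were listed by Pearson correlation of log2 CPM, as a description. For Saa1 they were Psma2 (0.934), Kdelr1 (0.924), Thap1 (0.919), Gm49839 (0.917) and Psmb6 (0.917), and for Lcn2 Septin10 (0.996), Fhl3 (0.995), Nedd9 (0.994), Junos (0.994) and Eme1 (0.992). The 10 mice share 4 groups and their library scaling, and the Lcn2 values follow the separation of CCl4 from vehicle mice. Each list holds the highest values picked from 17015 tested genes over 10 mice, and no correlation was tested. The near copy Saa2 was not among the genes listed for Saa1.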

How the data were processed

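RNA from the right liver lobe of 10 mice was made into TruSeq stranded mRNA libraries and sequenced as pairs of 50 bases. The authors aligned reads to GRCm38 with STAR 2.7.6a and quantified genes with Salmon 1.4.0 on GENCODE vM25, and deposited the estimated counts of each gene symbol, not normalized (9.22% of values are not whole). Reads that fit several genes are shared out by Salmon, so that counts of near copies are estimates. Totals were 33047904 to 52199904 per library, and 3 counts correspond to at most 0.112 CPM, for counting error only.

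Rounded counts were tested with edgeR 4.0.16 under R 4.3.3, after filterByExpr with the 4 groups. They were normalized by TMM and fitted in 1 model of the 4 groups (glmQLFit, robust), and 4 pairwise contrasts plus the interaction were taken two-sided with Benjamini-Hochberg adjustment over 17015 genes and a threshold of 0.05. SE values are the log2 fold change divided by the square root of the F statistic. CPM values use the unrounded counts, and the correlations use log2 CPM with a pseudocount of 2. The test was checked on simulated counts.

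The 10 genes and all lists were chosen with earlier results of these data known. From each related list and comparison, up to 4 called genes with the largest absolute log2 fold change were eligible to be named, or the 2 with the smallest p where none was called; not every one is named. Il6, Il22, Il1a, Il1b, Hpx, Fgb, Alb, Ttr and the markers of other cell types were named after their values were seen. Groups and replicate numbers came from the labels. Nothing in the labels names a batch. P-values of the main test set each difference against the spread between mice within groups, estimated over all 4 groups together. The alternatives were DESeq2 size factors, library size alone, no filter beyond 1 count, a mean of at least 10 counts, DESeq2's Wald test (version 1.42.0, without the shrinkage of fold changes that the study's methods describe), the quasi-likelihood method of edgeR 3, the replicate number as a block, only the 2 groups compared, near copies summed, and each mouse left out in turn, where a mouse left alone in its group is assumed to vary like the other groups. Positions and shared stretches come from GENCODE vM21 on GRCm38, since vM25 was not used here, and upstream sequences from RefSeq.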

Additional observations from a re-analysis of the deposited data

How the results depend on the processing

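With 2 or 3 mice a group, single mice decide several values. The calls of Lcn2, Saa4 and Orm3 with CCl4 held under every alternative that tests them singly and every leave-out for both guides, and the rise of Saa3 in NTC livers likewise. The Saa1 call in NTC livers was lost with library size alone (log2 -1.09, adjusted p = 0.122), without a filter (adjusted p = 0.112), with only the 2 groups compared (adjusted p = 0.0891) and with the copies summed. In sgBap1 livers Saa3 was lost without a filter (adjusted p = 0.0999), and with only the 2 groups compared Hp (adjusted p = 0.0542) and Apcs (adjusted p = 0.0663) were lost while Orm2 passed (log2 -0.50, adjusted p = 0.0195). The cause was not tested.

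The count of called members was 3 (without sgBap1-Veh mouse 1) to 6 in sgBap1 livers without 1 mouse, and 6 to 7 in NTC livers. Calls over all genes moved most for the guides. With vehicle 69 genes were called, against 562 by DESeq2's Wald test, 103 without a filter, 32 with library size alone, 27 with only the 2 groups and 0 (without NTC-Veh mouse 2) to 150 (without sgBap1-CCl4 mouse 2) without 1 mouse. After CCl4 56 were called, against 509 by the Wald test, 94 without a filter, 28 with only the 2 groups and 1 to 71 without 1 mouse. For the interaction 0 were called, against 424, 34 without a filter, 2 with library size alone and 0 to 7 without 1 mouse. The Wald test called 1 member, Saa3, with vehicle and 1, again Saa3, in the interaction. Library size alone raised the share of higher calls with CCl4 from 50.8% to 80.5% in NTC livers and from 50.9% to 78.3% in sgBap1 livers.

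Same-numbered mice are not tied to a litter or batch by the labels, and their deviations from the group means correlated at -0.230 to 0.142. With the replicate number as a block, 1 gene was called with vehicle and 24 after CCl4, the calls of Saa1 in NTC livers (adjusted p = 0.106) and of Hp and Apcs in sgBap1 livers (adjusted p = 0.0510 and 0.0538) were lost, and the interactions of Orm3 (0.059) and Apcs (-0.029) changed sign; neither had passed the test.

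The other changes of sign were among values that had not passed. With library size alone, Orm1 in sgBap1 livers was 0.36. Leaving out 1 mouse gave ranges with CCl4 in NTC livers of -1.74 to 0.39 for Saa2 and -0.11 to 0.58 for Orm1, and in sgBap1 livers of -0.99 to 0.059 for Saa1 and -0.27 to 0.61 for Saa2. Between guides with vehicle the ranges were -0.53 to 1.26 for Saa1, -0.31 to 1.82 for Saa2, -0.11 to 0.58 for Orm1, -0.73 to 0.75 for Orm2, -0.66 to 0.67 for Orm3, -0.42 to 0.16 for Lcn2 and -0.36 to 0.20 for Hp. After CCl4 they were -0.19 to 0.031 for Orm1 and -0.21 to 0.57 for Orm3. For the interaction they were -0.12 to 1.67 for Saa1, -0.28 to 1.84 for Saa2, -0.45 to 1.03 for Orm2, -0.54 to 0.79 for Orm3, -0.33 to 0.23 for Hp and -0.25 to 0.23 for Apcs.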
